A study of Homo sapiens with 15 samples.

Results

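The transcripts of 10 genes that growth factor signaling through the kinase ERK is known to induce were followed in human osteosarcoma cells treated with 2 rocaglates. The set holds the ETS transcription factors ETV1, ETV4 and ETV5, the Sprouty genes SPRY1, SPRY2 and SPRY4, the Sprouty-related genes SPRED1, SPRED2 and SPRED3, and PHLDA1. They were found by symbol in the count table of each cell line, which gave 10 of 57773 genes for MG-63 and 10 of 58051 for Saos2. The lookup used no measured value, but the members were chosen with earlier results of these data known. Their counts beside the shares of all genes are therefore a description.

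Receptor tyrosine kinases activate RAS, which passes the signal through the RAF and MEK kinases to ERK. ERK lifts repression by the protein CIC from the ETV genes, whose products then bind DNA as transcription factors. Sprouty and SPRED proteins act against the same route as feedback inhibitors, SPRED proteins by bringing the RAS inactivator neurofibromin to the membrane. Because their transcripts follow ERK activity in many tumor cells, several of these genes are used as readouts of MEK inhibition.

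MG-63 and Saos2 are established lines from human osteosarcomas, labelled wild type, so no group carries an engineered allele. MG-63 cells received 0.04% DMSO as vehicle, 5 nM didesmethylrocaglamide (DDR) or 25 nM rocaglamide (Roc), with 2 libraries per group. Saos2 cells received the same vehicle, 7 nM DDR or 40 nM Roc, with 3 libraries per group. All 15 libraries were made from mRNA after 24 h. DDR and Roc inhibit the RNA helicases eIF4A1 and eIF4A2, which open messenger RNA for translation, and DDR lacks the methyl groups on the amide nitrogen of Roc. Each compound was used at its growth IC50 for the line, so the nanomolar doses of the compounds were unequal. The assay counts transcripts and does not measure protein, ERK phosphorylation or translation. By their labels the libraries are biological replicates (1 MG-63 Roc library is named a replicate only), and nothing states how the cultures were kept apart, so p-values measure the spread between these libraries.

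The libraries held between 24.5 M and 42.5 M reads counted to genes (M, mega), the smallest being MG-63 Roc library 1. Levels are given as CPM, the count per M reads of the library, scaled within a line by the TMM method. Only the marker ranges in this paragraph are per M counted reads without that scaling. Among osteoblast markers, the bone phosphatase gene ALPL lay between 876 and 1186 CPM in Saos2 and between 0 and 0.458 CPM in MG-63, and the transcription factor gene RUNX2 between 476 and 562 CPM in Saos2 and between 5.52 and 11.9 CPM in MG-63. The other 4 genes of that marker list were higher in MG-63: COL1A2 lay there between 1038 and 1434 CPM against 7.39 to 9.73 CPM in Saos2, and COL1A1, SPARC and VIM were also higher, without overlap of the lines' ranges. EPCAM, an epithelial marker, lay between 15.4 and 23.2 CPM in Saos2, while CDH1, KRT5, KRT14 and the blood markers PTPRC, CD3E and LYZ stayed at or under 0.203 CPM in both lines.

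In GRCh37 the members lie on 10 different chromosomes. ETV1 spans chr7:13930854-14031050, ETV4 chr17:41605212-41656988 and ETV5 chr3:185764103-185828107, all on the minus strand. SPRY1 spans chr4:124317950-124324915 on the plus strand, and SPRY2 (chr13:80910111-80915261) and SPRY4 (chr5:141689992-141706020) lie on the minus strand. SPRED1 (chr15:38545037-38649450) and SPRED3 (chr19:38879061-38890227) are on the plus strand, and SPRED2 (chr2:65537985-65659771) and PHLDA1 (chr12:76419227-76425556) on the minus strand. Of the exon bases of ETV4, 68 (1.9%) are shared with DHX8 on the other strand, and DHX8 had 1677 to 2967 counts per library in Saos2, where ETV4 had 8 to 56. ETV5 shares 164 exon bases (2.8%) with DGKG on the same strand, and PHLDA1 shares 553 (9.4%) with the antisense gene PHLDA1-AS1. No source used here gives the strand setting of the counting or how reads shared between genes were handled. For ETV4 and PHLDA1, whose neighbors lie on the other strand, such reads may have gone to either gene or to none. The strand setting does not bear on ETV5 and DGKG, which share a strand. The part of these stretches in the values was not tested.

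Start-site sequences bear on how ERK reaches these genes, since CIC binds a known octamer. RefSeq (GRCh38.p14) gave 18 windows of 250 bases before a start for 8 of the 10 members, and none for ETV4 and ETV5. They were searched on both strands for the CIC octamer (TGAATGAA, TGAATGGA, TCAATGAA or TCAATGGA), for the ETS site CCGGAAGT, for the AP-1 site TGACTCA and for the CArG box of SRF. These windows are shown because the results turn on their genes, which fell in both lines (ETV1), rose in Saos2 (SPRED1) and differed in response between the lines (SPRY2). Capitals mark a CIC octamer.
ETV1, chr7:13991426-13991675, minus strand: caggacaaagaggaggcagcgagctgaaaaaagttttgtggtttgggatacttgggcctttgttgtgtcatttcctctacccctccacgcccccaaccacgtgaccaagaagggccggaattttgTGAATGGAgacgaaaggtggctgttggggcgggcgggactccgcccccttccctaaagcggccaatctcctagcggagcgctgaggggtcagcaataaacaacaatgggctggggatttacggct
SPRED1, chr15:38252586-38252835, plus strand: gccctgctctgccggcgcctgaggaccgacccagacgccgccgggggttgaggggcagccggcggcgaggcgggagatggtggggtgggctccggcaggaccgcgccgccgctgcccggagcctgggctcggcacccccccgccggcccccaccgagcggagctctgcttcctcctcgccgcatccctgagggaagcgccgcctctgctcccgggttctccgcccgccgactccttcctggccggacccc
SPRY2, chr13:80341127-80341376, minus strand: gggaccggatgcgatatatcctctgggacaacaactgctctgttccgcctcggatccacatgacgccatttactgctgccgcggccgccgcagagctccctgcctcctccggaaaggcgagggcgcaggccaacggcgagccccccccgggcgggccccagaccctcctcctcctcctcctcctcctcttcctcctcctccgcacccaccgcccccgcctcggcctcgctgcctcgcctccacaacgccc

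Of the ETV1 windows, the one shown alone held the octamer, TGAATGGA, 125 bases before the start, and 56.0% of its bases were G or C. The SPRED1 window, with 78.4% G or C, and the SPRY2 window shown, with 70.4%, held none of the 4 motifs. The other SPRY2 windows held none either. SPRED3 was the other member with an octamer, and also had the AP-1 site, shown with the motif in capitals.
SPRED3 octamer, chr19:38389588-38389617, plus strand: cttgatttttgTGAATGAAatgctctctgg
SPRED3 AP-1 site, chr19:38389720-38389748, plus strand: ccgttgctgggTGACTCAgtgagctttgc
The octamer was in 3.18% of all 35093 windows, the AP-1 site in 4.2%, the ETS site in 3.43% and the CArG box in 1.16%. A gene can have several windows, as ETV1 and SPRY2 do. Of all 27305 genes, 3.92% had the octamer in any window, 5.19% the AP-1 site, 4.13% the ETS site and 1.44% the CArG box. No member's window held the ETS site or the CArG box in these letters. A match of letters is a description and does not show that a factor binds.

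The untreated levels of the set differed widely between the lines. In MG-63 with DMSO, PHLDA1 was the highest member per length at 20.5 CPM per kb of merged exons, ahead of SPRED2 (11.5), ETV5 (10.9), ETV1 (7.64), SPRED1 (7.25) and SPRY2 (5.74). SPRY4 (3.47), SPRY1 (2.1) and ETV4 (0.912) followed, and SPRED3 was last at 0.0184 CPM per kb. No neighbors in that order overlapped between the 2 libraries. In Saos2 with DMSO, PHLDA1 was again first at 9.13 CPM per kb, and SPRED2 (5.61), SPRED1 (3.96) and SPRY2 (2.55) came next. ETV1 (0.764), ETV5 (0.599), SPRY4 (0.595), ETV4 (0.295), SPRED3 (0.172) and SPRY1 (0.166) closed the order. There the libraries of ETV1 and ETV5, of ETV5 and SPRY4, of ETV4 and SPRED3, and of SPRED3 and SPRY1 overlapped, so these neighbors were not separated by their spread.

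**Figure D1:**
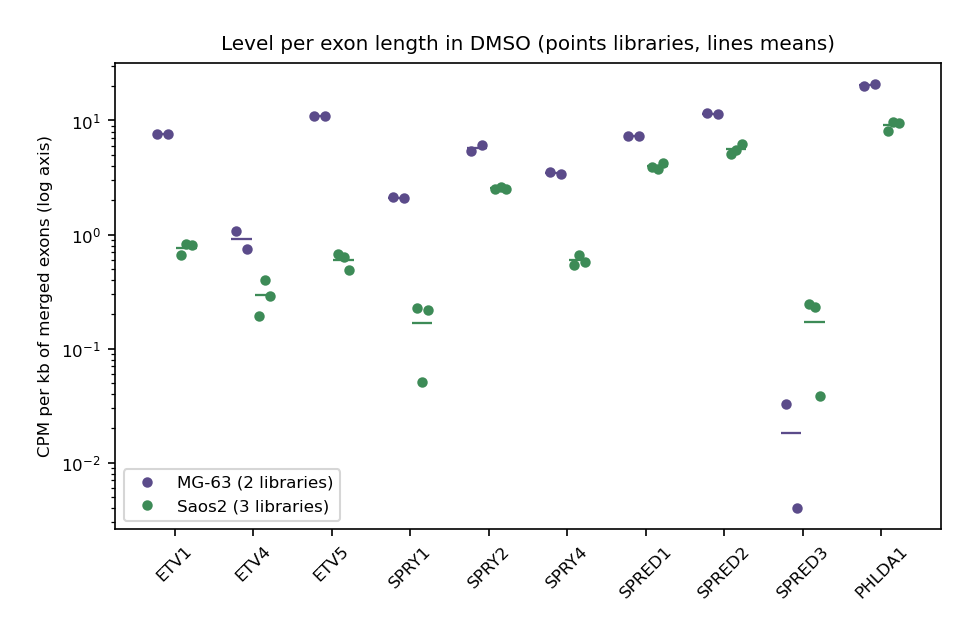
Level of each member per kb of merged exons in the DMSO libraries, on a log axis in CPM per kb. Points are libraries and short lines are group means. In 9 of the 10 genes each MG-63 library lay above each Saos2 library. SPRED3 had the opposite order with this scaling within a line.

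Between the DMSO groups, in a joint fit of all 15 libraries with edgeR's quasi-likelihood test, 9 members were called lower in Saos2 and 1 higher. A call needed an adjusted p of at most 0.05 (Benjamini-Hochberg, over all genes tested) and a log2 difference of at least 0.5 in either direction. Over all 18842 genes of that fit, 31.4% were called lower and 36.3% higher. ETV5 showed the largest gap of the set, with a log2 level difference of -4.65 ± 0.15 (SE; edgeR adjusted p = 7.5e-19), from 63.4 and 63.0 CPM in MG-63 to 3.91, 3.65 and 2.81 CPM in Saos2, each scaled within its line. ETV1 differed by -3.76 ± 0.12 and SPRY4 by -2.99 ± 0.19 on the same log2 scale, and SPRY1 by -4.12 ± 0.37. The log2 difference was smaller for ETV4 (-2.06 ± 0.35), SPRY2 (-1.62 ± 0.14), PHLDA1 (-1.61 ± 0.09), SPRED2 (-1.48 ± 0.11) and SPRED1 (-1.32 ± 0.09). SPRED3 was higher in Saos2 by 2.79 ± 0.92 (edgeR adjusted p = 0.0089), but rested on 7 and 1 reads in MG-63 against 45, 54 and 9 in Saos2, its groups overlapped in the joint scaling, and without MG-63 DMSO library 2 the difference was 1.94 with an adjusted p of 0.12. The lines were counted over different gene sets, and the median of all genes in this comparison moved by over 0.1 with the scaling, from 0.165 with TMM to 0.642 with library totals (8841 genes called higher and 4164 lower, against 6843 and 5910 with TMM). All 9 lower calls kept their direction under each of the 21 alternatives.

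Against DMSO, the members called in MG-63 were all lower, and those called in Saos2 lay in both directions. In MG-63, DDR lowered 4 of 10 members and raised none, against 7.74% of all 15303 genes tested called lower and 9.01% called higher. The 4 were ETV1, SPRY2, SPRY4 and PHLDA1. The split over all genes depended on the scaling: library totals gave 1149 higher and 1410 lower, against 1379 and 1184 with TMM. The 4 calls held with either scaling. Roc in MG-63 lowered 3 members, ETV1, ETV4 and SPRY2, and raised none, against 2.53% and 4.57% of all genes called lower and higher. The median log2 fold change of the 10 members was -0.385 with DDR and -0.341 with Roc, beside -0.007 and 0.013 over all genes tested.

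In Saos2, DDR lowered ETV1, ETV4 and SPRY4 and raised SPRED1, against 6.73% of 17593 genes called lower and 7.55% called higher. For DDR in Saos2, library totals gave 1364 genes lower and 1091 higher, against 1184 and 1328 with TMM. Roc lowered the same 3 genes and raised SPRED1 and SPRED2, against 10.4% called lower and 13.5% called higher. With library totals in place of TMM, 2416 genes were called lower and 1929 higher with Roc in Saos2, against 1825 and 2367, and the median of all genes shifted to -0.1075. The member calls did not change with that scaling except that PHLDA1 was added. The median log2 fold change of the members was -0.642 with DDR and -0.386 with Roc, beside -0.013 and -0.015 over all genes. The compounds of a line share their DMSO libraries, so the lists of the 2 compounds are not independent. As in any bulk RNA measurement, fewer cells with a transcript and less transcript per cell cannot be told apart.

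**Figure D2:**
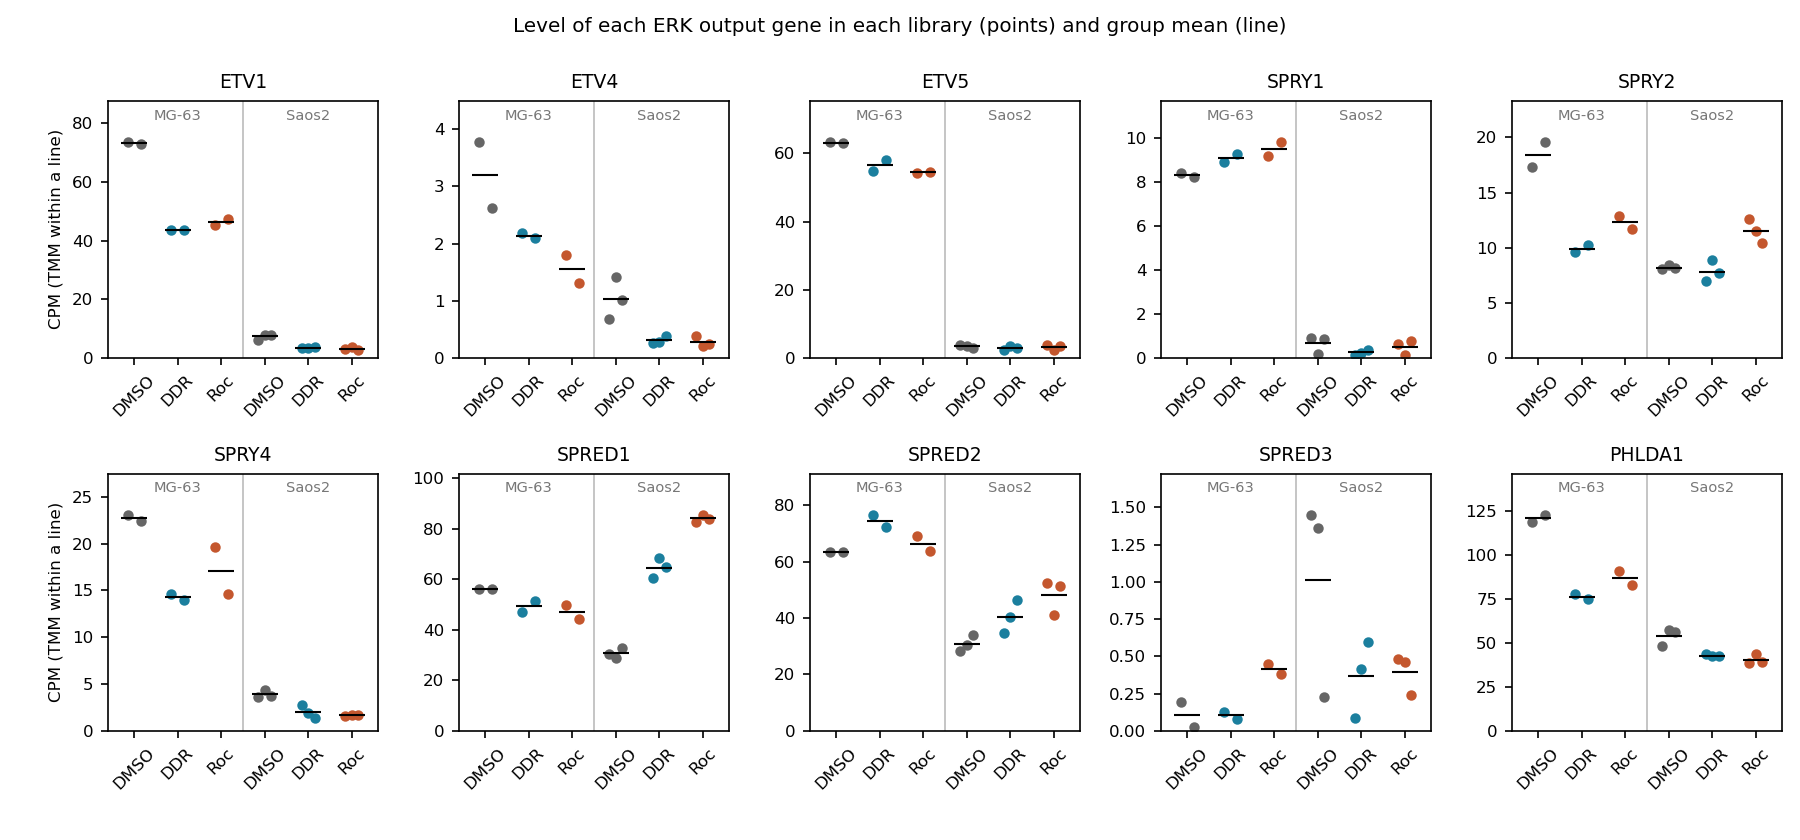
CPM of each member in each library, with TMM scaling within a line. Points are libraries, black lines group means, and gray, blue-green and red-brown stand for DMSO, DDR and Roc. ETV1 was below its DMSO libraries in every treated library of both lines, and SPRED1 was above them in Saos2 only.

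**Figure D3:**
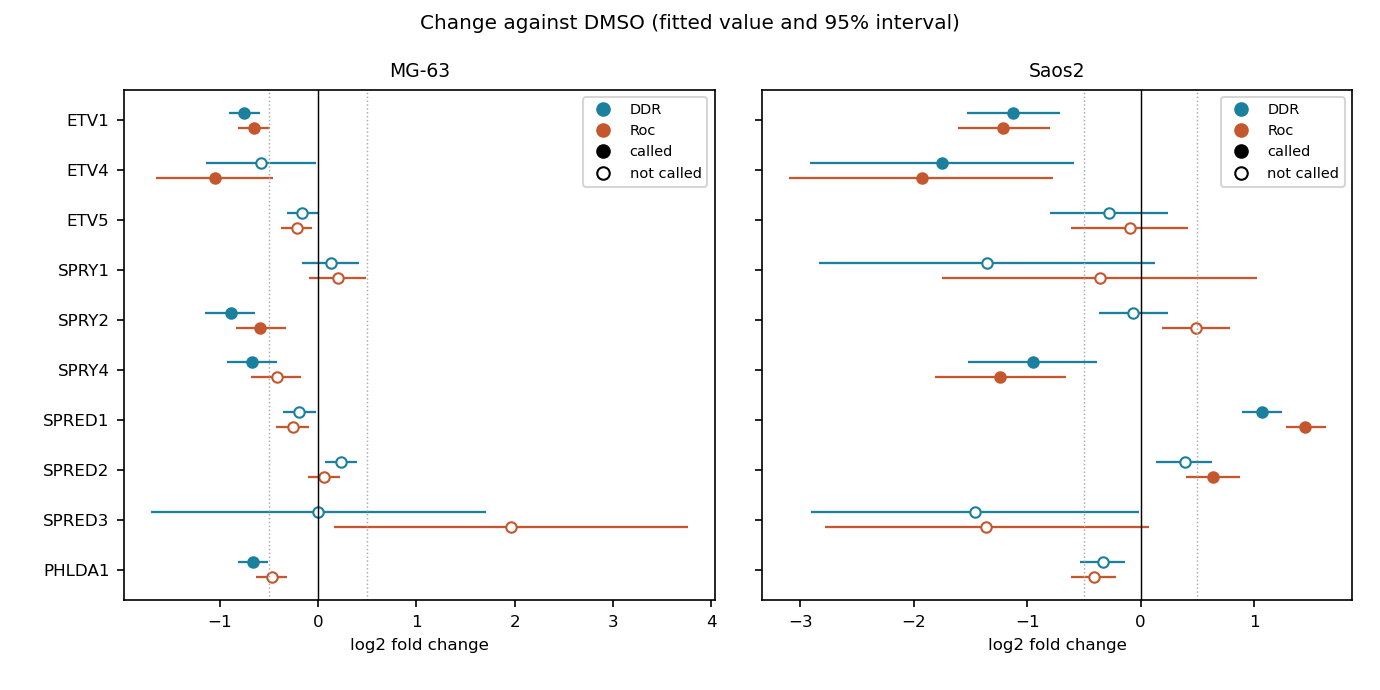
Log2 fold change of each member against DMSO, with 95% intervals, in MG-63 (left) and Saos2 (right). Filled points were called, open points were not, and dotted lines mark the fold minimum of 0.5. ETV1 was called lower with either compound in either line, and SPRED1 was called higher with both compounds in Saos2.

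Of the ETS factors, ETV1 fell in all 4 comparisons. ETV1, a PEA3-group factor best known from fusions in prostate cancer and as a survival factor in gastrointestinal stromal tumor, stood at 73.7 and 72.9 CPM in MG-63 with DMSO. It was at 43.6 and 43.6 CPM with DDR and at 45.5 and 47.5 CPM with Roc, so the treated libraries lay close together and well below the controls. The fall in MG-63 was 0.75 ± 0.08 log2 units with DDR (SE; edgeR adjusted p = 8.2e-08), a 1.68-fold decrease, and ETV1 fell by 0.65 ± 0.08 with Roc (edgeR adjusted p = 2.6e-06). In Saos2 it stood at 6.29, 7.89 and 7.81 CPM with DMSO, 3.29, 3.24 and 3.59 CPM with DDR, and 3.1, 3.76 and 2.67 CPM with Roc. No treated Saos2 library reached the lowest control, and ETV1 fell by 1.12 ± 0.20 with DDR (edgeR adjusted p = 0.00015) and by 1.21 ± 0.20 with Roc (edgeR adjusted p = 3.5e-05). These 4 calls held under every alternative and with each library left out.

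ETV4, the ETS factor after which the PEA3 group is also named, was a low transcript. It stood at 3.78 and 2.63 CPM in MG-63 with DMSO, 2.19 and 2.09 CPM with DDR and 1.8 and 1.31 CPM with Roc. The groups did not overlap, but the DMSO libraries were far apart. ETV4 fell by 1.05 ± 0.29 log2 units with Roc (edgeR adjusted p = 0.012), and its value with DDR, -0.58 ± 0.27, was not called (edgeR adjusted p = 0.1). In Saos2 it had 21, 56 and 41 reads with DMSO, 9, 8 and 12 with DDR and 11, 8 and 9 with Roc, or 0.678 to 1.41 CPM against 0.264 to 0.378 and 0.205 to 0.379 CPM. With these few reads it fell by 1.75 ± 0.56 with DDR (edgeR adjusted p = 0.022) and by 1.93 ± 0.56 with Roc (edgeR adjusted p = 0.0086). The ETV4 calls were fragile: with Roc in MG-63 the adjusted p was 0.18 without DMSO library 1 and 0.12 without Roc library 2, and in Saos2 it was 0.15 with DDR and 0.071 with Roc without DMSO library 2. With DDR in Saos2 it was also 0.055 without DMSO library 3 and 0.077 without DDR library 1.

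ETV5, the last of the group and the one with the widest gap between the untreated lines, was not called in any comparison against DMSO. In MG-63 it stood at 63.4 and 63.0 CPM with DMSO, 54.9 and 58.1 with DDR and 54.2 and 54.7 with Roc. The treated MG-63 libraries all lay below the controls, with log2 fold changes of -0.16 ± 0.08 with DDR (edgeR adjusted p = 0.11) and -0.22 ± 0.08 with Roc (edgeR adjusted p = 0.054). In Saos2, ETV5 stood at 3.91, 3.65 and 2.81 CPM with DMSO, 2.38, 3.38 and 2.81 CPM with DDR and 3.86, 2.36 and 3.54 CPM with Roc. Those groups overlapped, and the 95% intervals of the log2 fold change, -0.80 to 0.24 with DDR and -0.61 to 0.42 with Roc, leave room for a change in either direction.

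Among the Sprouty genes, SPRY4 fell in 3 comparisons, all but Roc in MG-63, and SPRY2 fell in MG-63. SPRY4, an inhibitor of RAS activation downstream of growth factor receptors, stood at 23.1 and 22.4 CPM in MG-63 with DMSO, 14.6 and 14.0 CPM with DDR and 19.6 and 14.6 CPM with Roc. The Roc libraries were uneven, with library 1 nearer to the controls. SPRY4 fell by 0.67 ± 0.12 log2 units with DDR (edgeR adjusted p = 0.00014), while -0.42 ± 0.12 with Roc passed the adjusted p (edgeR, 0.018) but not the fold minimum. Without MG-63 Roc library 1, which was also the shallowest, the Roc value was -0.65 with an adjusted p of 0.0011, and without Roc library 2 it was -0.21. In Saos2, SPRY4 stood at 3.58, 4.36 and 3.76 CPM with DMSO, 2.79, 1.93 and 1.32 CPM with DDR and 1.55, 1.69 and 1.72 CPM with Roc. All treated libraries lay below the controls, the Roc libraries more tightly than the DDR libraries. SPRY4 fell by 0.95 ± 0.27 with DDR (edgeR adjusted p = 0.012) and by 1.24 ± 0.28 with Roc (edgeR adjusted p = 0.0011). The DDR call in Saos2 was lost without DDR library 3 (-0.72, adjusted p = 0.074) or without DMSO library 2 (-0.87, adjusted p = 0.064).

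SPRY2, which inhibits the RAS-ERK route and can also shield the EGF receptor from CBL, stood at 17.3 and 19.6 CPM in MG-63 with DMSO. It was at 9.62 and 10.2 CPM with DDR and at 12.9 and 11.7 CPM with Roc, so both compounds took it below the controls. SPRY2 fell by 0.89 ± 0.12 log2 units with DDR (edgeR adjusted p = 4.7e-06), the largest decrease called for a member in that comparison, and by 0.59 ± 0.12 with Roc (edgeR adjusted p = 0.0015). Without DMSO library 2 the Roc value in MG-63 was -0.49 with an adjusted p of 0.053. In Saos2 the pattern was another: 8.04, 8.39 and 8.14 CPM with DMSO, 6.95, 8.86 and 7.66 CPM with DDR, and 12.6, 11.5 and 10.4 CPM with Roc. DDR libraries surrounded the controls, with a log2 fold change of -0.07 ± 0.15, whereas all Roc libraries lay above them. The Roc value, 0.49 ± 0.14, passed the adjusted p (edgeR, 0.01) and lay just under the fold minimum, and without Roc library 3 it was called at 0.53 (adjusted p = 0.018).

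SPRY1, an antagonist of growth factor signaling with a known part in kidney development, was not called in any comparison against DMSO. In MG-63 it stood at 8.42 and 8.21 CPM with DMSO, 8.9 and 9.3 CPM with DDR and 9.2 and 9.83 CPM with Roc, slightly above the controls in each treated library. The MG-63 log2 fold changes were 0.13 ± 0.14 with DDR (edgeR adjusted p = 0.5) and 0.20 ± 0.14 with Roc (edgeR adjusted p = 0.37). In Saos2 it had 28, 8 and 35 reads with DMSO, 5, 7 and 12 with DDR and 18, 6 and 29 with Roc. The groups overlapped at these counts, and the values were -1.35 ± 0.71 with DDR (edgeR adjusted p = 0.18) and -0.36 ± 0.67 with Roc (edgeR adjusted p = 0.72).

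Of the SPRED genes, SPRED1 rose in Saos2 with both compounds and was not called in MG-63. SPRED1 carries neurofibromin to the plasma membrane, and its inherited loss causes Legius syndrome. In Saos2 it stood at 30.4, 29.0 and 32.7 CPM with DMSO, 60.3, 68.5 and 64.9 CPM with DDR and 82.6, 85.5 and 84.0 CPM with Roc. The 3 groups were fully separated and each was tight. SPRED1 rose by 1.07 ± 0.09 log2 units with DDR, a 2.1-fold increase (edgeR adjusted p = 7.5e-09), and by 1.45 ± 0.09 with Roc, a 2.74-fold increase (edgeR adjusted p = 1.8e-11). Both calls held under every alternative and with each library left out. In MG-63 the values were 56.1 and 56.3 CPM with DMSO, 47.2 and 51.2 CPM with DDR and 49.7 and 44.4 CPM with Roc, lower in each treated library. Those log2 fold changes were -0.19 ± 0.08 with DDR (edgeR adjusted p = 0.075) and -0.26 ± 0.08 with Roc (edgeR adjusted p = 0.032, under the fold minimum). By its level per length, SPRED1 went from the third place among the members in untreated Saos2 to the first with DDR (8.33 CPM per kb, overlapping SPRED2 at 7.35) and with Roc (10.8 CPM per kb, above SPRED2 at 8.76 without overlap).

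SPRED2, which like SPRED1 limits the activation of RAF by RAS, rose in Saos2 with Roc. It stood there at 28.2, 30.5 and 33.9 CPM with DMSO, 34.6, 40.4 and 46.4 CPM with DDR and 52.4, 41.0 and 51.3 CPM with Roc. All treated libraries lay above the controls, and the DDR and Roc libraries overlapped. SPRED2 rose by 0.64 ± 0.12 log2 units with Roc (edgeR adjusted p = 0.00014), and with DDR 0.39 ± 0.12 passed the adjusted p (edgeR, 0.017) but not the fold minimum. In MG-63 it stood at 63.4 and 63.3 CPM with DMSO, 76.6 and 72.3 CPM with DDR and 69.0 and 63.6 CPM with Roc. The MG-63 values, 0.23 ± 0.08 with DDR (edgeR adjusted p = 0.02) and 0.06 ± 0.08 with Roc (edgeR adjusted p = 0.63), were under the fold minimum.

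SPRED3, the third gene of the family, was too rare for a firm value. In MG-63 it had 7 and 1 reads with DMSO, 5 and 3 with DDR and 11 and 13 with Roc. Both Roc libraries lay above the controls, yet the log2 fold change of 1.96 ± 0.87 was not called (edgeR adjusted p = 0.12), and with DDR it was 0.00 ± 0.82. In Saos2, SPRED3 had 45, 54 and 9 reads with DMSO, 3, 12 and 19 with DDR and 14, 18 and 9 with Roc. DMSO library 3 stood apart from the other controls, and the values were -1.46 ± 0.69 with DDR and -1.36 ± 0.68 with Roc (edgeR adjusted p = 0.13 for each). Without DMSO library 3 they were called, at -1.94 (adjusted p = 0.03) and -1.83 (adjusted p = 0.029).

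PHLDA1 encodes a pleckstrin homology-like protein that belongs to common transcript panels of MEK activity. It fell in MG-63 with DDR. It stood there at 119 and 123 CPM with DMSO, 77.8 and 74.9 CPM with DDR and 91.2 and 83.2 CPM with Roc. The 3 groups did not overlap, and PHLDA1 fell by 0.66 ± 0.08 log2 units with DDR (edgeR adjusted p = 3.2e-07). With Roc, -0.47 ± 0.08 passed the adjusted p (edgeR, 9.1e-05) but not the fold minimum, and without Roc library 1 it was called at -0.55 (adjusted p = 9.5e-05). In Saos2 it stood at 48.1, 57.5 and 56.3 CPM with DMSO, 43.5, 42.4 and 42.6 CPM with DDR and 38.8, 43.7 and 38.9 CPM with Roc. Each treated Saos2 library lay below each control. The log2 fold changes there, -0.33 ± 0.09 with DDR (edgeR adjusted p = 0.0097) and -0.41 ± 0.09 with Roc (edgeR adjusted p = 0.0011), were under the fold minimum. The Roc value in Saos2 was called at -0.53 without DMSO library 1, at -0.51 without Roc library 2 and at -0.50 with library totals.

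Set against each other at their unequal doses, Roc and DDR differed by the call in 1 of the 10 members in Saos2 and in 0 of 10 in MG-63. Over all genes 1.20% were called in either direction in MG-63 and 3.76% in Saos2, where SPRY2 was the member called. The split of those calls into higher and lower moved with the scaling, in Saos2 from 432 and 229 with TMM to 287 and 281 with library totals. In MG-63 it moved from 99 and 85 to 124 and 63. At an unadjusted edgeR p under 0.05, SPRY2, SPRED2, SPRED3 and PHLDA1 passed in MG-63, and SPRY2, SPRED1 and SPRED2 in Saos2. Many other genes passed that looser limit, since SPRED2 ranked only 2654 of 15303 genes in MG-63 and 3895 of 17593 in Saos2. Whether members passed it more often than all genes was not tested. SPRY2 was higher with Roc than with DDR in Saos2 by 0.56 ± 0.15 log2 units (95% interval 0.25 to 0.86, edgeR adjusted p = 0.017), in 3 of 3 Roc libraries against each DDR library. That call was lost without DDR library 1, DDR library 3, Roc library 1 or Roc library 2, with adjusted p of 0.052 to 0.12. SPRED1 in Saos2 was higher with Roc by 0.38 ± 0.08 (0.21 to 0.55, edgeR adjusted p = 0.0047), under the fold minimum. In MG-63 the lowest adjusted p was that of PHLDA1 (edgeR, 0.16), with a difference of 0.19 (0.03 to 0.35), and SPRY2 differed by 0.31 (0.04 to 0.57, adjusted p = 0.18). For the members at low counts the intervals were wide, such as -1.42 to 1.06 for ETV4 and -0.50 to 2.49 for SPRY1 in Saos2, and do not show that the compounds act alike. For ETV1 they were narrower, in MG-63 -0.07 to 0.26 and for Saos2 -0.51 to 0.34.

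The lines differed in their response of SPRY2, SPRED1 and SPRED2. The difference between the lines was tested as an interaction in the joint fit, Saos2 minus MG-63, in which 6.96% of genes were called higher and 6.31% lower for DDR, and 8.37% higher and 4.63% lower for Roc. For Roc, library totals gave 1053 genes higher and 1252 lower, against 1578 and 872 with TMM, and the 3 members called with TMM were called with either scaling. The DDR split turned as well, from 1311 higher and 1189 lower with TMM to 1129 and 1256 with library totals. SPRED1 differed by 1.30 ± 0.12 log2 units for DDR (edgeR adjusted p = 3.2e-07) and by 1.76 ± 0.12 for Roc (edgeR adjusted p = 1.3e-09). SPRY2 differed by 0.86 ± 0.20 for DDR (edgeR adjusted p = 0.0048) and by 1.12 ± 0.20 for Roc (edgeR adjusted p = 0.00033). SPRED2 differed by 0.62 ± 0.16 for Roc (edgeR adjusted p = 0.0075), and by 0.19 ± 0.16 for DDR, which was not called (edgeR adjusted p = 0.47). In the main fit no member was called lower for either compound, while some alternatives gave lower calls. The doses of a compound were unequal between the lines (5 and 7 nM DDR, 25 and 40 nM Roc), so line and dose cannot be told apart.

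Other members came close to a difference between the lines. For Roc, ETV1 differed by -0.51 ± 0.18 (edgeR adjusted p = 0.054), SPRY4 by -0.77 ± 0.28 (edgeR adjusted p = 0.065) and SPRED3 by -3.27 ± 1.22 (edgeR adjusted p = 0.07). ETV1 was called under 7 of 22 alternatives, SPRY4 under 8 and SPRED3 under 4. For DDR, PHLDA1 differed by 0.36 ± 0.13 (edgeR adjusted p = 0.05, under the fold minimum) and SPRY1 by -1.44 ± 0.62 (edgeR adjusted p = 0.12, called under 3 of 22 alternatives). For ETV5 the 95% intervals, -0.53 to 0.37 for DDR and -0.28 to 0.61 for Roc, included no difference.

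**Figure D4:**
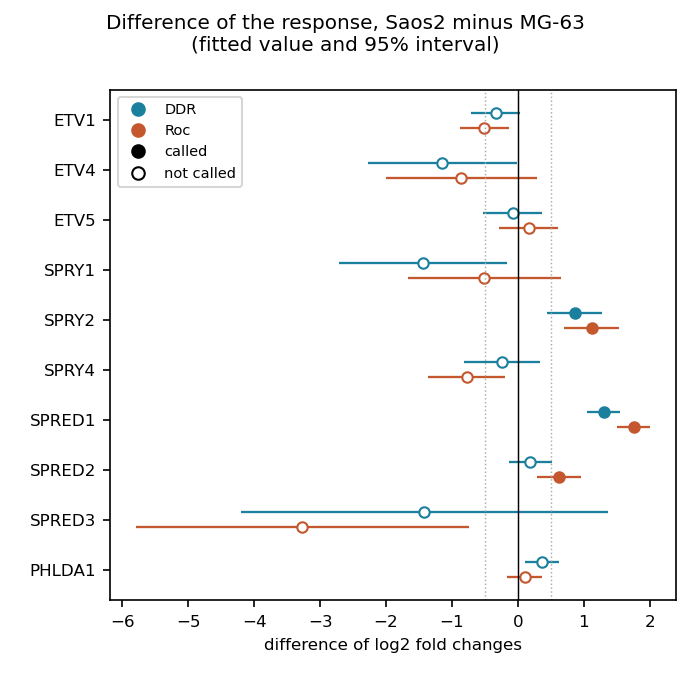
Difference between the lines in the log2 fold change against DMSO, Saos2 minus MG-63, for DDR and Roc with 95% intervals. Filled points were called and dotted lines mark 0.5. SPRED1 and SPRY2 lay to the right for both compounds and SPRED2 for Roc, and the interval of SPRED3 was the widest.

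The rest of the pathway was described with lists drawn from general knowledge. Over all genes tested in MG-63, 9.01% were called higher and 7.74% lower with DDR, and 4.57% and 2.53% with Roc. In Saos2 the shares were 7.55% and 6.73% with DDR, and 13.5% and 10.4% with Roc. They stand beside each count below, and a count near them is no result about its list. Other known ERK outputs had 14 genes tested in each line. DDR had 2 of them higher and 2 lower in MG-63 and 3 higher and 3 lower in Saos2. Roc had 1 higher and 2 lower in MG-63 and 6 higher and 2 lower in Saos2. HBEGF, 1 of the 2 lower genes of MG-63, is also in the list of growth factors. In MG-63, DUSP6, a phosphatase that dephosphorylates ERK, fell by 1.5 ± 0.1 log2 units with DDR (edgeR adjusted p = 4.5e-11) and by 1.29 ± 0.1 with Roc, while in Saos2 its mean was 0.508 CPM and its log2 fold changes, 0.91 and 1.05, were not called. In Saos2, the early response factor EGR1 fell by 2.14 ± 0.14 with DDR and by 2.22 ± 0.14 with Roc (edgeR adjusted p = 8e-10 and 7.1e-11). CCND1, the cyclin that ERK induces for the entry into S phase, rose in Saos2 by 0.89 ± 0.16 with DDR and by 1.96 ± 0.15 with Roc, and its log2 fold changes in MG-63 were -0.07 and -0.16. In MG-63, MYC rose by 0.70 ± 0.07 with DDR, and in Saos2 by 1.15 ± 0.08 with Roc. Its values with Roc in MG-63 (0.46 ± 0.07) and with DDR in Saos2 (0.39 ± 0.08) were under the fold minimum only. The ephrin receptor gene EPHA4 rose in Saos2 by 0.59 ± 0.09 and 0.9 ± 0.09.

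Of 21 genes from the adaptors to ERK, 1 rose with each compound in MG-63, 4 rose with DDR and 8 with Roc in Saos2, and none fell. In MG-63 these counts are near the shares of all genes called (9.01% higher and 7.74% lower with DDR, 4.57% and 2.53% with Roc) and are no result about the cascade. The shares called in Saos2 were 7.55% higher and 6.73% lower with DDR, and 13.5% and 10.4% with Roc. GAB1, a docking protein of growth factor receptors, was the gene called in MG-63, at 1.33 ± 0.18 with DDR and 0.94 ± 0.19 with Roc, and rose in Saos2 by 1.01 ± 0.08 and 1.18 ± 0.08. The RAF activator SHOC2 rose in Saos2 by 1.02 ± 0.08 and 1.38 ± 0.08, and the exchange factor SOS1 by 0.82 ± 0.08 with either compound. MAP2K1, which encodes MEK1, rose with Roc in Saos2 by 0.80 ± 0.11. The median log2 fold change of the list in MG-63 was 0.21 with DDR and 0.11 with Roc. In Saos2 it was 0.27 with DDR and 0.39 with Roc.

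Of 11 other negative regulators of RAS-ERK signaling, 1 rose with each compound in MG-63, 2 rose with DDR in Saos2, and 4 rose and 1 fell with Roc in Saos2. In MG-63 these counts are near the shares of all genes called higher (9.01% with DDR, 4.57% with Roc) and are no result about the list. The shares in Saos2 were 7.55% higher with DDR, and 13.5% higher and 10.4% lower with Roc. RASAL2, a RAS GTPase-activating protein, was called in all 4 comparisons, from 0.56 ± 0.08 with Roc in MG-63 to 1.01 ± 0.08 with Roc in Saos2. RASA1, of the same class, rose in Saos2 by 0.87 ± 0.09 and 0.96 ± 0.09, and its values in MG-63 were 0.05 and 0.07. The difference between the lines for RASA1 was 0.86 ± 0.13 with DDR (edgeR adjusted p = 1.1e-04) and 0.94 ± 0.13 with Roc. ERRFI1, an inhibitor of the EGF receptor, and the ubiquitin ligase gene CBL rose with Roc in Saos2, by 0.67 ± 0.07 and 0.62 ± 0.07. IL17RD (SEF), which holds back ERK signaling, was the gene that fell there, by 0.72, and was named after its value was seen. LRIG1, which promotes the degradation of receptor kinases, was not called in any comparison.

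Of the ETS factors outside the set, with SRF, CIC and its partners, 15 were tested and none fell. DDR raised 5 in each line, and Roc raised 4 in MG-63 and 10 in Saos2. Of all genes, 9.01% were called higher with DDR in MG-63 and 7.55% in Saos2, and with Roc 4.57% and 13.5%. The shares called lower were 7.74% and 6.73% with DDR, and 2.53% and 10.4% with Roc. Whether the counts exceed these shares was not tested. CIC, the repressor of the ETV genes, rose in MG-63 by 0.91 ± 0.09 with DDR and by 0.53 ± 0.09 with Roc. In Saos2 it rose with Roc by 0.5 ± 0.13, at the fold minimum, and its value with DDR was 0.09. Its partner ATXN1 rose in Saos2 by 0.65 ± 0.09 and 1.12 ± 0.09. ETS1 rose with DDR in MG-63 by 0.80 ± 0.08 and in Saos2 by 0.51 ± 0.07 and 0.74 ± 0.08. Its value with Roc in MG-63, 0.48 ± 0.08, was under the fold minimum only. ELK4, an SRF partner that ERK phosphorylates, rose in Saos2 by 0.65 with DDR and 1.09 with Roc. ETV3, an ETS repressor, rose there by 0.58 with DDR and 0.92 with Roc. The median log2 fold change of this list in MG-63 was 0.42 with DDR and 0.25 with Roc. For Saos2 the medians were 0.39 and 0.63.

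Upstream of RAS, 12 receptor tyrosine kinase genes were tested in MG-63, of which DDR had 6 higher and 2 lower and Roc 2 higher. Of all genes there, 9.01% were called higher and 7.74% lower with DDR, and 4.57% and 2.53% with Roc. EGFR rose by 0.69 ± 0.07 with DDR there, and ERBB2 by 0.83 ± 0.09 with DDR and 0.62 ± 0.09 with Roc. The EGFR value with Roc in MG-63, 0.47 ± 0.07, was under the fold minimum only. FGFR3 was called in MG-63 with DDR at 2.54 ± 0.89, from a mean of 0.0821 CPM with DMSO to 0.52 CPM with DDR. In Saos2, where 11 were tested, DDR had 2 higher and 2 lower and Roc 3 higher and 2 lower. The shares of all genes in Saos2 were 7.55% higher and 6.73% lower with DDR, and 13.5% and 10.4% with Roc. Whether the receptor counts exceed the shares was not tested in either line. EGFR rose there by 0.51 ± 0.08 with DDR and 0.86 ± 0.08 with Roc, and FGFR3 by 0.61 ± 0.11 and 0.8 ± 0.11. PDGFRA fell by 0.74 ± 0.08 with DDR in MG-63 and rose by 0.61 ± 0.08 with Roc in Saos2. Its values with Roc in MG-63 (-0.43 ± 0.08) and with DDR in Saos2 (0.39 ± 0.08) were under the fold minimum only. FGFR1 was not called in any of these comparisons.

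Among growth factor genes 11 were tested in MG-63, of which DDR had 5 higher and 2 lower and Roc 3 higher and 1 lower. Of all genes there, 9.01% were called higher and 7.74% lower with DDR, and 4.57% and 2.53% with Roc. FGF5 rose there by 1.29 ± 0.08 with DDR and 0.68 ± 0.08 with Roc, FGF2 by 1.02 ± 0.08 and 0.56 ± 0.08, and NRG1 by 1.29 ± 0.12 and 0.65 ± 0.13. In Saos2, where 9 were tested, each compound had 3 higher and 2 lower. The shares of all genes in Saos2 were 7.55% higher and 6.73% lower with DDR, and 13.5% and 10.4% with Roc. Whether the growth factor counts exceed the shares was not tested in either line. The named genes of Saos2 moved as follows. EGF fell by 1.66 ± 0.16 with DDR and by 2.05 ± 0.16 with Roc, while FGF1 rose by 1.17 ± 0.16 and 2.0 ± 0.16. FGF2 rose in Saos2 as well, by 1.56 ± 0.44 and 3.01 ± 0.43, from a mean of only 0.34 CPM with DMSO. The relatives of PHLDA1 moved apart. In MG-63, PHLDA2 fell by 0.72 ± 0.16 with DDR and by 0.92 ± 0.17 with Roc, and PHLDA3 rose by 1.64 ± 0.28 and 1.37 ± 0.29. In Saos2, PHLDA2 fell by 1.92 ± 0.59 with DDR, from a mean of 0.941 CPM with DMSO, and PHLDA3 rose by 1.48 ± 0.28 with Roc. The values of PHLDA2 with Roc (-0.94 ± 0.55) and of PHLDA3 with DDR (0.75 ± 0.29) were not called there.

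**Figure D5:**
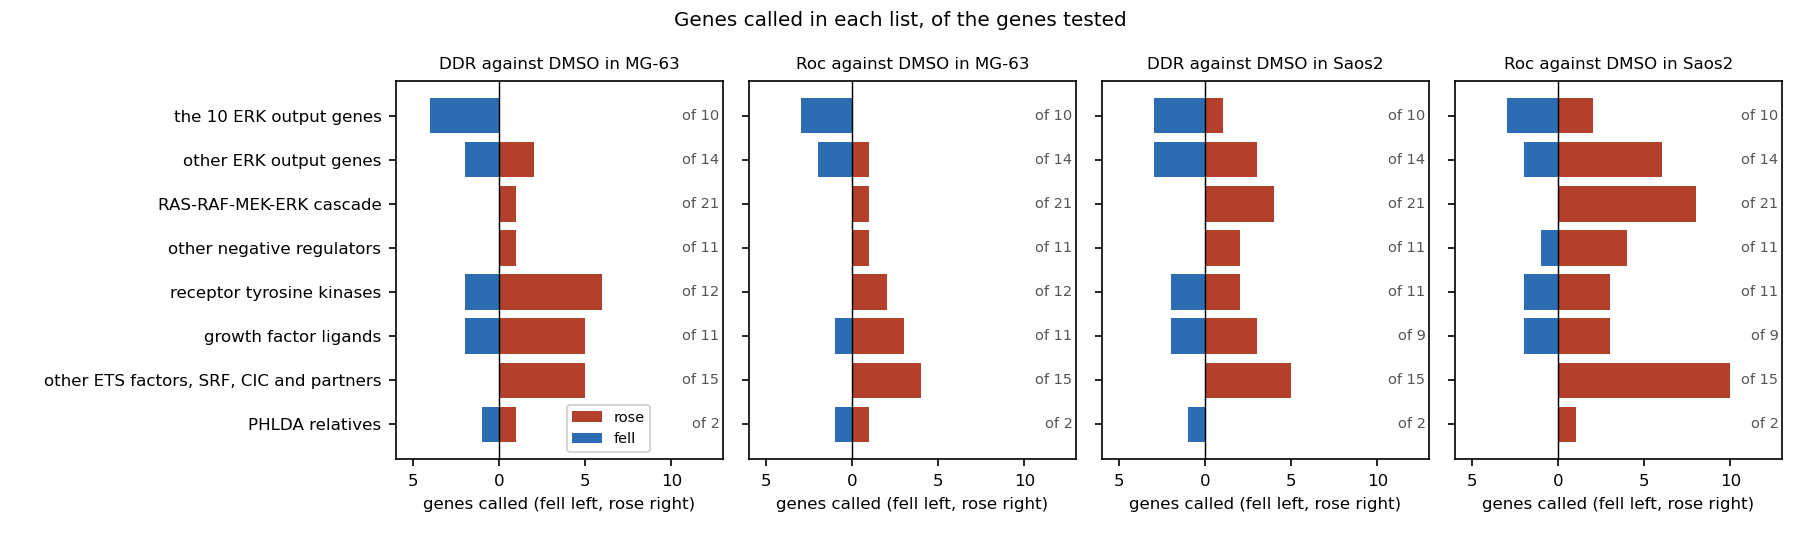
Number of genes called lower (left of 0) and higher (right of 0) in each list, per comparison with DMSO. The number tested stands at the right of each bar. The cascade and the other ETS factors had calls to the right only, and the 10 members to the left only in MG-63.

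Genes whose levels ran most like those of 4 members were sought among 11490 other protein-coding genes tested in both lines. The measure was Pearson's r of log2 CPM over the 15 libraries after each line's mean was subtracted, given here as a description, since the libraries share treatments. SPRY2 ran closest to GCLM (r = 0.93), TNFRSF11B (0.9) and GPR56 (0.89). SPRY4 ran closest to PMM2 (r = 0.94), PSMD4 (0.92) and AREL1 (0.91), and ETV5 to ZC3H10 (0.87), POLR3K (0.82) and SDC1 (0.82). For ETV5 the lines differed: in MG-63 alone r was 0.64 for ZC3H10 and 0.45 for POLR3K, against 0.9 and 0.86 in Saos2. SDC1 had 0.88 in MG-63 and 0.83 in Saos2. PHLDA1 ran closest to KIAA1191 (r = 0.96), TMEM167A (0.95) and TATDN1 (0.95). None of these 12 genes was a member of the set or of its pathway lists, and by Spearman's rho 3 of the 12, those of ETV5, were again among the top 3.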

How the data were processed

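Gene counts were deposited by the authors as raw counts, not normalized: reads of stranded mRNA libraries were filtered with Bowtie2 (2.5.1), aligned to GRCh37 with STAR (2.7.3a) and counted per gene with HTSeq (0.11.2). No source used here gives its strand setting or gene annotation release. The other 55 per-sample columns (normalized counts, and raw counts repeated in the comparison tables) and the columns of the authors' own comparisons (fold changes and p-values) were not used. In R 4.3.3, edgeR 4.0.16 (filterByExpr, TMM, glmQLFit with robust off, glmQLFTest) was fitted to the 3 groups of a line, and to all 15 libraries as 6 groups, with genes matched by Ensembl ID, for differences between the lines. The SE was taken as the absolute log2 difference divided by the root of F. CPM per kb used the merged exons of GENCODE v44 lifted to GRCh37. Promoter windows come from RefSeq (GRCh38.p14). Named were all members, of each other list the up to 5 genes with the smallest p over the comparisons against DMSO (mean of at least 1 CPM in the line), and, for 4 members, the 3 most alike genes. Some listed genes are not reported here. Members and lists were chosen with earlier results of these data known. The alternatives were DESeq2 1.42.0, limma-voom 3.58.1, RLE factors, library totals, no filter, the compared groups alone, the replicate block and each library left out.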

Additional observations from a re-analysis of the deposited data

Results flagged for a closer look

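Among the members, 5 responses differed between the lines by a test of the difference itself (interaction in the joint edgeR fit, Saos2 minus MG-63, over all genes tested). SPRED1 differed by 1.3 log2 units for DDR and by 1.76 for Roc, SPRY2 by 0.86 for DDR and by 1.12 for Roc, and SPRED2 by 0.62 for Roc. Each call held under all 22 alternatives, with adjusted p of at most 0.049. The doses of each compound differed between the lines, and the part of dose in these differences was not tested.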

How the results depend on the processing

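Values were recomputed under 7 other choices of model, scaling or filter and with each library left out. The untreated difference between the lines had no fit with the replicate block. With the compared groups alone, SPRED3 for DDR in MG-63 and ETV4 for Roc against DDR in Saos2 gave no value. Of the single-gene values, 600 stayed on their side of the threshold under the other choices, 14 became called and 4 changed sign. With a library left out, 854 stayed, 16 became called, 14 were lost and 16 changed sign. Deviations of same-numbered libraries correlated between -0.01 and 0.02 in MG-63, where 2 libraries per group make the deviations mirror images that say little. In Saos2 same-numbered libraries correlated between 0 and 0.14, and differently numbered ones between -0.11 and 0.03. The main fits used no replicate block, and whether the numbers stand for paired cultures was not tested. With the replicate block the Roc difference between lines called ETV1 at -0.51 and the DDR difference called SPRY1 at -1.43, and SPRED3, Roc against DDR in Saos2, was -0.02.

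Members called with Roc in MG-63 numbered 3, and 2 to 5 with a library left out. With DDR in Saos2 they numbered 4, and 2 to 4, the lowest without DMSO library 2. For Roc against DDR in Saos2 they numbered 1, and 0 to 1. For the Roc difference between lines they numbered 3, and 5 under DESeq2, RLE factors, library totals, no low count filter or the compared groups alone, and 3 to 5 with a library left out. The order of levels kept 48 of 60 ranks with the longest coding transcript as length, and 3 of 12 most alike genes returned with Spearman's rho.

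Sign changes were confined to uncalled values. SPRED3 with DDR in MG-63 was -0.03 under DESeq2, -0.04 with library totals and -0.86 to 1.99 with a library left out, and PHLDA1 in the Roc difference between lines was -0.01 with library totals. With a library left out, SPRED2 with Roc in MG-63 ranged from -0.01 to 0.12, SPRED1 for Roc against DDR in MG-63 from -0.15 to 0.01, SPRY2 with DDR in Saos2 from -0.18 to 0.01, ETV5 with Roc in Saos2 from -0.26 to 0.06, SPRY1 with Roc in Saos2 from -0.83 to 0.05, and ETV5 in the DDR difference between lines from -0.21 to 0.03. For Roc against DDR in Saos2, ETV1 ranged from -0.26 to 0.01, ETV4 from -0.48 to 0.00, SPRY4 from -0.51 to 0.03 and SPRED3 from -0.37 to 0.67. The cause was not tested. SPRED3, ETV4 and SPRY1 had at most 56 reads in any Saos2 library, and the other genes named here had more.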
